A study of Mus musculus with 2 samples.

Results

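The tripartite motif (TRIM) family of mouse ubiquitin ligases was described in bone marrow-derived dendritic cells, titled GMDC in the labels, which do not spell out the abbreviation. Its members were all genes whose symbol on the array's annotation is Trim followed by a digit, with 1 such gene left out, and 63 of the 22180 genes that own a probe set with a single symbol met this rule through 68 probe sets. A further 5 family symbols occurred only on probe sets shared with another symbol and were not assigned values. The control group was 1 culture labelled control, and the other group was 1 culture given medium that topotecan-treated E0771 cells, a mouse mammary tumour line, had conditioned; topotecan is a drug that traps topoisomerase I on DNA. Strain, age, time in culture, the growth factors used and the medium of the control are not stated in the labels, so the drug and the tumour cells' medium cannot be told apart. With 1 array for each culture there is no replicate error, no test and no p-value, and each difference given here is between 2 arrays.

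TRIM proteins carry a RING domain that transfers ubiquitin, followed by B-box zinc fingers and a coiled coil, and most differ in the domain at the C-terminal end. A B30.2 (also called PRYSPRY) domain there binds a partner protein and is common among antiviral members, whereas PHD and bromodomains bind chromatin and NHL repeats bind RNA or protein. In dendritic cells and macrophages several members are known targets of interferon, and others tune the pathways that lead from nucleic acid sensors to interferon and NF-kB.

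Dendritic cells are known to respond to interferon through an element, the interferon-stimulated response element, whose core is GAAA, 2 bases of any kind and GAAA again. This core was searched on both strands in RefSeq promoter windows (build GRCm38.p6) that run from 250 bases before to 50 bases after a gene's start. The 50 bases after the start were added once the data had been seen. Of the 63 members, 48 had such a window. The members above the filter level described below that held it are shown here because they include 6 of the 9 members that were higher by 2-fold or more after conditioned medium. Each run is 30 bases of the coding strand, 5′ to 3′, with the matching bases in capitals; overlapping matches are joined, and TTTC, 2 bases and TTTC is the same core read on the other strand.
Trim21, chr7:102565447-102565476, minus strand, 14 bases after the start: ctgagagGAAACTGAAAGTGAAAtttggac
Trim26, chr17:36836979-36837008, plus strand, 145 bases before the start: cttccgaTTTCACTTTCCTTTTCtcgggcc
Trim30a, chr7:104465210-104465239, minus strand, 27 bases before the start: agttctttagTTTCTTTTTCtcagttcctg
Trim30d, chr7:104507871-104507900, minus strand, 32 bases before the start: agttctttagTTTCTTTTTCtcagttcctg
Trim12a, chr7:104315466-104315495, minus strand, 11 bases after the start: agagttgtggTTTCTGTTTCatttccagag
Trim12c, chr7:104353359-104353388, minus strand, 20 bases before the start: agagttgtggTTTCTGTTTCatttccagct
Trim34a, chr7:104244457-104244486, plus strand, 11 bases after the start: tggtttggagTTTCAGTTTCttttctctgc
The 30 bases of Trim30a and Trim30d are the same letters, and those of Trim12a and Trim12c differ only at their 3′ end. A second annotated start of Trim30a also has the core, 3 bases after that start.

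Most of the TRIM genes that were at least 2-fold higher after conditioned medium belong to the relatives of Trim5, Trim6, Trim12, Trim30 and Trim34. These are B30.2 genes that sit side by side on chromosome 7. This group leaves out the pseudogene Trim30e-ps1 of the same row, which had a log2 difference of -0.24. Of the 8 relatives measured, 6 were higher by 2-fold or more in the culture with conditioned medium and 0 were lower by as much. Of all genes that reached the filter level described below, 8.63% were higher and 6.84% lower by that much. Trim30b was 27.2-fold and Trim30c 19.6-fold higher. Outside this group Trim21, the cytosolic antibody receptor, was 8.59-fold higher, while the remaining members mostly differed by less than 2-fold.

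Values are log2 intensities as deposited, and a gene counted as above the filter level when the higher of its 2 values reached 4.10, the median of all values. This left 43 of the 63 members (68.3%), beside 61.8% of all genes. Of the 43, 9 (20.9%) were higher by 2-fold or more, beside 8.63% of the 13712 genes that reached the filter level, and 2 (4.65%) were lower by 2-fold or more, beside 6.84%. The other 32 lay between. The median log2 difference of the 43 was -0.10 with quartiles of -0.54 and 0.74, and that of all genes above the filter level was -0.07 with quartiles of -0.45 and 0.36. The centre of the family thus lay near that of all genes, and its upper quartile was further from 0. With the filter at the 75th percentile of all values, the median of the 20 members left was 0.58. Of the 43 members, 37 reached the filter level on both arrays, 5 on the control array alone and 1, Trim72, with conditioned medium alone; these 6 could pass only through their higher side.

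**Figure D1:**
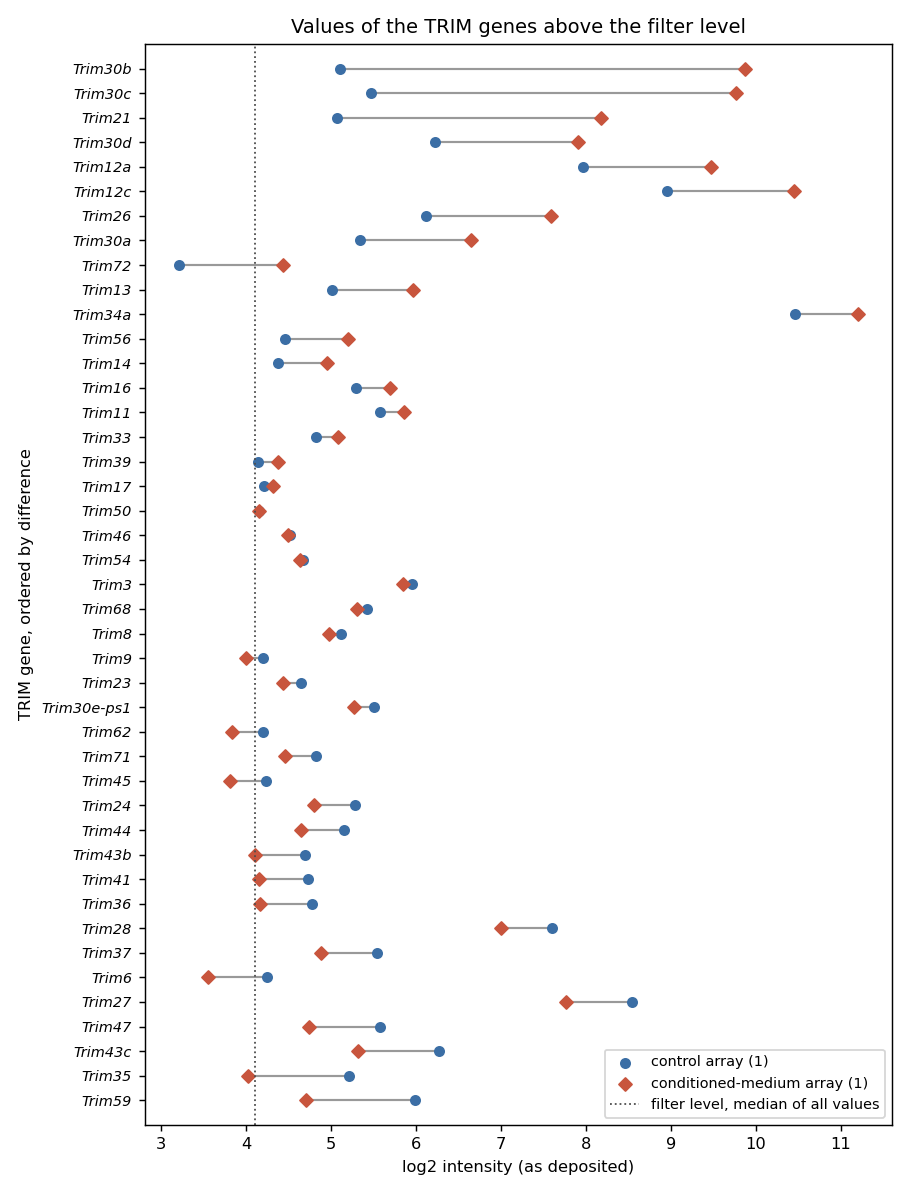
Log2 intensity (horizontal axis, as deposited) of the 43 TRIM genes that reached the filter level on at least 1 array, ordered by difference. Circles are the single control array, diamonds the single conditioned-medium array, and the dotted line is the filter level of 4.10; Trim30b, Trim30c and Trim21 have the longest lines.

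Trim30b had a log2 intensity of 5.11 on the control array and 9.87 on the conditioned-medium array, a difference of 4.77 that 0.27% of genes above the filter level matched or exceeded. Trim30c had 5.47 and 9.76, a difference of 4.29, which 0.387% matched or exceeded. In both genes the control value also lay above the filter level. The remaining Trim30 genes differed less. Trim30d had 6.22 and 7.90, or 3.20-fold more with conditioned medium. Trim30a, known for limiting Toll-like receptor signals to NF-kB, had 5.34 and 6.65, or 2.49-fold more. The transcribed pseudogene Trim30e-ps1, at the end of the row, had 5.51 and 5.27, a log2 difference of -0.24. The 5 Trim30 genes therefore ranged from slightly lower to over 4 log2 units higher.

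Trim12a and Trim12c are mouse relatives of the primate TRIM5 gene, whose protein blocks incoming retroviral capsids. Trim12a had 7.97 in the control culture and 9.47 after conditioned medium, or 2.83-fold more. Trim12c had 8.96 and 10.44, or 2.80-fold more. These 2 neighbours thus had nearly the same difference. Trim34a, a further B30.2 gene, had 10.46 and 11.21 (1.68-fold more), and its second probe set had 9.66 and 10.49, a log2 difference of 0.83 beside 0.75. It was below 2-fold on both probe sets. Trim6, a relative known to make free ubiquitin chains in interferon signalling, was the 1 member of the 8 with a negative difference, at 4.24 and 3.56; raised to the filter level, its difference shrank from -0.68 to -0.14.

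In RefSeq the stretch from Trim6 to Trim30e-ps1 holds 21 genes, of which 11 are TRIM genes and 9 of these have a single-symbol probe set. The one non-TRIM gene of the stretch with its own probe set, the long noncoding RNA gene Gm15133, chosen here after its value was seen, had 5.44 on the control array and 7.53 on the other. Among the 60 genes on either side, mostly olfactory receptor genes, 83 protein-coding genes were measured and 7 reached the filter level. Of these 7, 0 were higher and 1 was lower by 2-fold or more, beside 8.63% and 6.84% of all genes above that level. Their differences ran from -1.32 to 0.86, and 7 genes are too few to set against those shares. Of the measured genes of the row, those from Trim12a to Trim30d were past 2-fold, Gm15133 among them with a log2 difference of 2.09. Trim6 and Trim34a before them and Trim30e-ps1 after them were not. Members of this row are similar in sequence, and how far their probe sets share signal was not tested. In the 250 bases before the first listed start, Trim30a and Trim30d had 89% of aligned positions identical and Trim12a and Trim12c 69.3%, while Trim30b and Trim30c had 51.9%.

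**Figure D2:**
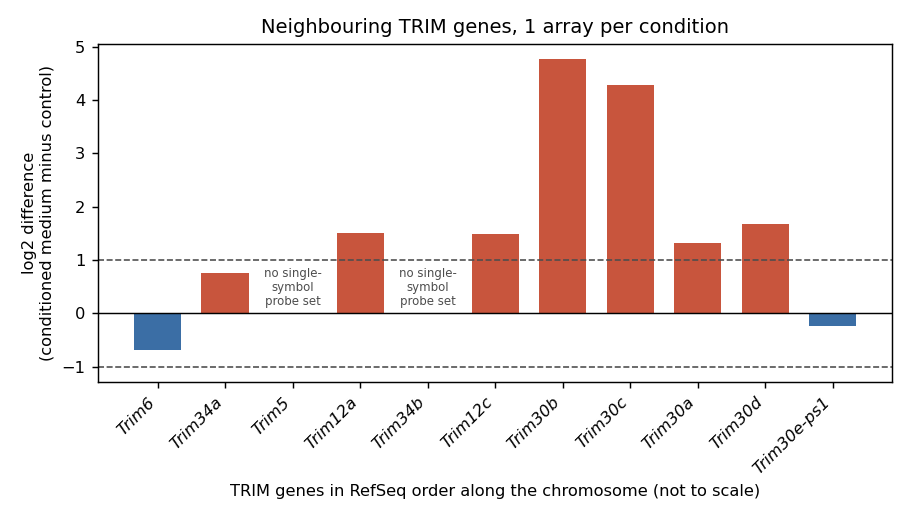
Log2 difference (conditioned medium minus control) of the 11 neighbouring TRIM genes in RefSeq order, with dashed lines at 2-fold; spacing is not to scale. The 6 bars past 2-fold lie between Trim34a and Trim30e-ps1, and Trim5 and Trim34b have no probe set of their own.

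The search for the response element core shown above was extended past the gene start after the data were seen. In the extended window the core was present in 6 of the 9 members counted as higher (66.7%). Of the 21 other members above the filter level that had a promoter window, 1 (4.76%) held it, which was Trim34a. For scale, 3.99% of the 27025 genes with such a window held it, as did 11.1% of the 903 among them that passed the filter and 2-fold upward. Within the 250 bases before the start alone, the window first planned, the counts were 4 of 9 (44.4%) and 0 of 21. There, 3.46% of all genes held the core, as did 9.75% of the 903 that passed the filter and 2-fold upward. The other 3 higher members, Trim30b, Trim30c and Trim72, had no such letters in either window. Below the filter level, Trim2 had 1 match. Among the 6, Trim30a and Trim30d had the same printed run and Trim12a and Trim12c nearly the same, so the 6 are not separate occurrences. These matches are descriptions of letters, and binding was not measured.

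Among the members known to act in innate immune and NF-kB signalling, 13 were measured and 9 reached the filter level. Of these 9, 2 passed 2-fold upward and 0 downward, beside 8.63% and 6.84% of all genes above the filter level. Trim21, which binds antibody on virus particles in the cytosol and sends them to the proteasome, had 5.07 on the control array and 8.18 on the other, a log2 difference of 3.10 that 1.06% of genes above the filter level matched or exceeded. Trim26, a B30.2 gene of the major histocompatibility region that acts in the induction of interferon beta, had 6.11 and 7.59, or 2.79-fold more. Both values of both genes were above the filter level.

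The next members of this group fell short of 2-fold. Trim13, a ligase anchored in the endoplasmic reticulum, had 5.01 and 5.96 (1.93-fold more). Trim56, which acts in the response to cytosolic DNA, had 4.46 and 5.20 (1.67-fold more), and Trim14, an adaptor at the mitochondrial signalling protein MAVS that has no RING domain, had 4.37 and 4.95 (a log2 difference of 0.58). On the other side of 0, Trim27 had 8.55 and 7.76 on one probe set and 6.07 and 5.62 on the other, with log2 differences of -0.78 and -0.45. Trim23, which carries an ARF-like GTPase domain, differed by -0.21, Trim8, a regulator of cytokine signalling, by -0.13, and Trim68 by -0.12. The group was thus split, with 5 members above 0 and 4 below. Trim31, Trim32, Trim38 and Trim40 stayed under the filter level on both arrays.

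The chromatin members Trim24, Trim28 and Trim33 belong to a family of transcription cofactors with PHD and bromodomains. Trim28, the corepressor that KRAB zinc finger proteins recruit, had 7.60 on the control array and 6.99 on the other, a log2 difference of -0.61. Trim24 had 5.28 and 4.79 (-0.48), and Trim33, a ligase in SMAD signalling, had 4.82 and 5.08 (0.27). None of the 3 reached 2-fold, and the fourth, Trim66, was under the filter level. Of the NHL-repeat members, Trim3 had 5.95 and 5.85 and Trim71, a regulator of early development, 4.82 and 4.46. Trim2 and Trim32, the other NHL members, were under the filter level, so this group had 0 of 2 members past 2-fold.

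The members with a COS box bind microtubules or, as the MuRF proteins, act in muscle. Trim46, a protein of the axon, had 4.52 and 4.50, Trim54, a MuRF gene, 4.67 and 4.64, Trim9, a brain protein, 4.200 and 4.003, and Trim36 4.77 and 4.17. These 4 were within 2-fold, with differences from -0.61 to -0.02, and Trim55, Trim63 and Trim67 were under the filter level.

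Of the other B30.2 members, 16 were measured and 10 reached the filter level. Of these 10, 1 passed 2-fold upward and 1 downward, near the 8.63% and 6.84% of all genes above the filter level. Trim35 had 5.21 on the control array and 4.02 on the other, a log2 difference of -1.19, or -1.11 when the lower value was raised to the filter level. Trim72, a membrane repair protein of muscle, had 3.20 and 4.43, a log2 difference of 1.23. Its control value lay under the filter level, and against that level the difference was 0.33, or 1.26-fold, so Trim72 no longer passed. The remaining 8 lay between: Trim16 (0.40), Trim11 (0.28), Trim39 (0.23), Trim17 (0.10), Trim50 (0.00), Trim62 (-0.36), Trim41 (-0.58) and Trim47 (-0.84), as log2 differences. Trim50 read 4.15 on each array. Such identical pairs made up 4 of the 68 member probe sets (5.88%) and 4.16% of all probe sets.

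Among the members with other or no further domains, Trim59, which is anchored in membranes, had 5.98 on the control array and 4.70 on the other, a log2 difference of -1.28 that 3.76% of genes above the filter level matched or fell below. Both of its values were above the filter level. Trim37, a ligase of centrosomes and peroxisomes, had 5.54 and 4.88 (-0.67). Trim44, which lacks a RING domain, had 5.15 and 4.64 (-0.51), and Trim45 had 4.23 and 3.80 (-0.43). Of these 4 genes Trim59 passed 2-fold, and the other differences were below 0 as well; 44.2% of all genes above the filter level had a difference above 0. Against the filter level Trim45 differed by -0.13. Of the embryonic Trim43 genes, Trim43c had 6.27 and 5.32 (-0.95) and Trim43b 4.69 and 4.11 (-0.58), and neither reached 2-fold.

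The 20 members under the filter level were Trim2, Trim7, Trim10, Trim15, Trim29, Trim31, Trim32, Trim38, Trim40, Trim42, Trim43a, Trim52, Trim55, Trim58, Trim63, Trim66, Trim67, Trim69, Trim75 and Trim80. On the probe set used for each gene, their values ran from 2.40 to 4.05 and their differences from -0.88 to 0.74, which at this level may be background. For Trim7 the 2 probe sets had differences of opposite sign, 0.74 and -0.25. For Trim42 they had -0.03 and -1.52, so probe sets of a gene in this range did not always give like values.

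**Figure D3:**
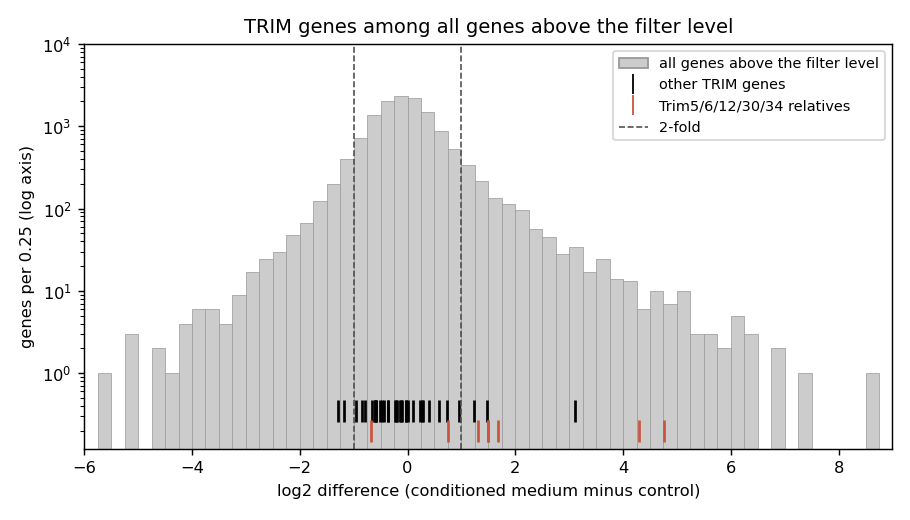
Number of genes above the filter level (grey bars, log axis) by log2 difference, conditioned medium minus control, with ticks for the 43 TRIM genes. The Trim5/6/12/30/34 relatives are the lower ticks, 6 of 8 to the right of the 2-fold line. The other 35 TRIM genes, the pseudogene Trim30e-ps1 among them, cluster around 0 with a median of -0.20.

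Without the 8 relatives, 35 members were above the filter level, the pseudogene Trim30e-ps1 among them, with a median log2 difference of -0.20. Of these 35, Trim21, Trim26 and Trim72 passed 2-fold upward and Trim35 and Trim59 downward. The relatives themselves had a median of 1.495. This split is a description of these 2 arrays.

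TRIM proteins that go by other symbols were also examined. Mefv, the gene of pyrin, had 4.71 on the control array and 7.76 on the other (8.27-fold more), Mid1, a microtubule-bound ligase, had 5.48 and 8.17 (6.45-fold more), and Pml, which builds nuclear bodies, had 5.25 and 6.62 (2.58-fold more). All 3 above the filter level were past 2-fold upward, beside 8.63% of all genes above it, and Mid2 was under it.

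Ubiquitin ligases receive ubiquitin from an E2 enzyme that an E1 enzyme has charged. Of 18 E1 and E2 genes measured, 3 passed 2-fold upward and 0 downward, beside 8.63% and 6.84% of all genes above the filter level. The median log2 difference of the 18 was 0.07. The 3 were Ube2l6 (5.69 and 8.04) and Uba7 (6.83 and 8.23), the E2 and E1 of the ubiquitin-like modifier ISG15, and Ube2d1 (7.57 and 9.40), an E2 of the class that works with many RING ligases. Ube2n, which makes the lysine-linked chains used in immune signalling, had 6.60 and 6.69, and Ube2d3 had 8.13 and 8.38. Most of the conjugation machinery thus had near equal values on the 2 arrays.

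In the list of nucleic acid sensors, adaptors and kinases, 5 of 13 genes passed 2-fold upward and 0 downward, and the median log2 difference was 0.98. For scale, 8.63% of all genes above the filter level passed 2-fold upward and 6.84% downward. Irf7, the transcription factor that amplifies interferon production, had 7.78 and 11.19, while the adaptor gene Mavs held 4.90 on both arrays and the kinase gene Tbk1 had 7.59 and 7.27. In the list of interferon receptor signalling genes, 6 of 9 passed 2-fold upward and 0 downward, and the median was 1.41. Stat2 had 5.19 and 7.37 and Irf9 had 6.21 and 7.62, both subunits of the factor that binds the response element, whereas Jak1, a receptor kinase, had 6.91 and 7.27.

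**Figure D4:**
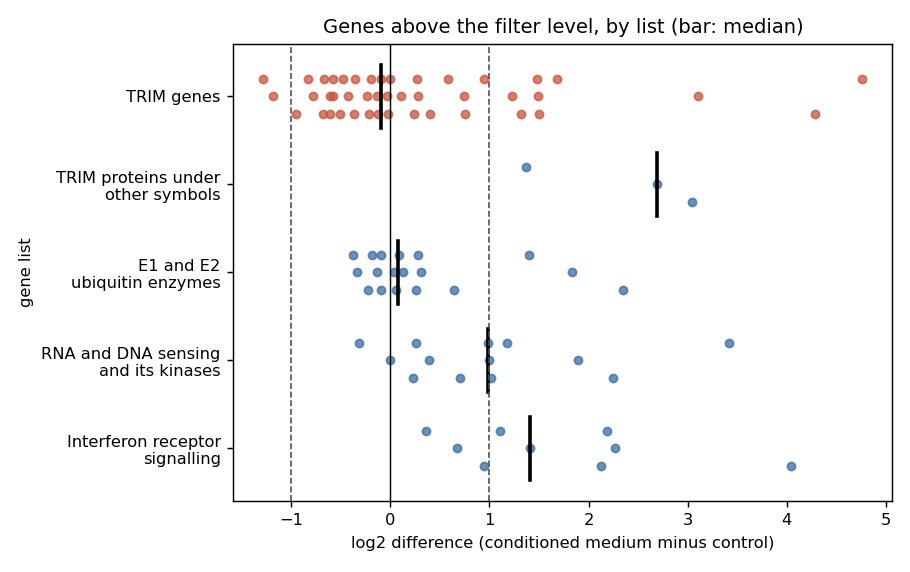
Log2 difference, conditioned medium minus control, of each gene above the filter level in the TRIM family and in 4 related lists; black bars are medians, dashed lines are 2-fold, and the height of a point within its row has no meaning. TRIM genes have a median near 0 with a tail to the right, and the interferon receptor signalling genes lie at or right of 0.36.

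Markers of cell types also differed between the arrays, and their part in the TRIM values was not tested. In such bulk RNA, fewer cells of a type and less RNA per cell cannot be told apart. Of 9 neutrophil markers, 7 passed 2-fold downward. Ly6g went the other way, with 6.14 and 6.88, and Cxcr2 fell short of 2-fold, with 5.35 and 4.39. The log2 of the summed intensity of the 9 was 13.25 on the control array and 11.29 on the other. S100a8, with 12.16 and 10.53, and S100a9, with 11.77 and 9.57, make up much of that sum. Sums here run over the measured markers of a list. For scale, 8.63% of all genes above the filter level passed 2-fold upward and 6.84% downward. Of 6 macrophage markers 2 passed 2-fold downward, with a sum of 13.15 and 13.52 and a mean log2 level of 9.44 and 8.74. Of 6 dendritic cell markers above the filter level 4 passed 2-fold downward and 2 upward, with a sum of 10.84 and 11.48 and a mean log2 level of 6.53 and 6.05. In both lists the sum and the mean thus moved in opposite directions; H2-Ab1, with 10.16 and 11.31, makes up much of the dendritic sum. Zbtb46, a defining dendritic cell marker, was under the filter level on both arrays, and Itgax, the gene of CD11c, had 8.18 and 7.15. B cell markers (summed 5.83 and 5.94) and T and NK cell markers (6.42 and 6.51) had 0 genes past 2-fold. Of 6 mammary epithelial markers, 4 including Epcam and Krt18 were under the filter level. Cdh1 alone was past 2-fold (6.42 and 10.21), and Krt8, the other marker above the filter level, had 4.96 and 4.77. The list sum was 7.39 and 10.29, and Cdh1 makes up most of the sum on the conditioned-medium array.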

How the data were processed

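The authors deposited 1 table with a log2 intensity per probe set for each of 2 arrays, per the labels hybridised with biotin-labelled RNA; the log base is inferred from values between -0.26 and 13.50 and similar medians of 4.10 and 4.09. Affymetrix Expression Console is named in the submitters' processing notes; version, normalization and build were not given in the sources used here. Such matched distributions would hide a shift of most genes. Symbols came from the platform annotation (23521 of 41345 probe sets had 1 symbol, 1814 several, 16010 were not listed), and all 63 member gene identifiers matched RefSeq with the same symbol. One further family gene is not reported here.

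A gene was represented by its probe set with the highest mean and kept when the higher value was at least 4.10, the median of all values. The log2 difference is conditioned medium minus control. Genes were counted at 2-fold, with no test. Differences of probe sets of the same gene had a pooled SD of 0.46 (787 degrees of freedom), which leaves out the spread between cultures. The number of arrays limits the precision.

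Members, lists, motif and size rule were chosen with earlier results of these data known. Genes named were the members past 2-fold, those with the 5 highest means or the 5 smallest differences, and the other kept members of each group; Trim43b, Trim43c and Trim30e-ps1, kept members of no group, were also named, chosen with their values in view. The motif window was extended past the gene start, and the genes around the chromosome 7 row were added, after the data were seen. Promoter windows were compared by global alignment. Alternatives were quantile normalization, a subtracted lowess curve (fraction 0.3, 3 iterations), centring on genes that passed, averaging a gene's probe sets, dropping the filter, setting it at the 75th percentile or on the mean of both arrays, folds of 1.5 and 3, and low values raised to the filter level. Counting was tested on simulated data. Python 3.11.15, numpy 2.4.6, pandas 2.3.3, statsmodels 0.14.6 and matplotlib 3.10.9 were used.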

Additional observations from a re-analysis of the deposited data

Results flagged for a closer look

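Of 7 probe sets annotated with several symbols that include a TRIM gene, and so used in no comparison, 1 was at least 2-fold higher with conditioned medium: probe set 17481284, which carries 2 symbols of the family, had 4.90 on the control array and 6.97 on the other, a log2 difference of 2.07 (4.21-fold). It stands out because it holds signal above the control array in data outside the counts. Of the 1278 probe sets with several symbols that reached the filter level, 7.04% passed 2-fold upward. The other 6 had log2 differences from -0.90 to 0.61.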

How the results depend on the processing

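The 9 higher and 2 lower TRIM genes were the same genes under quantile normalization, the subtracted lowess curve, centring, the mean of all probe sets and no filter. None of these genes has a second probe set, so averaging could not change them. Centring shifted every gene by the same 0.0039, and dropping the filter could only add genes. With the filter at the 75th percentile (5.48), 20 members were left, 8 were higher (without Trim72) and 1 was lower (without Trim35), beside 13.6% and 10.2% of all genes that passed it, and the median log2 difference of the family turned from -0.10 to 0.58, this alternative holding fewer genes; the median of all genes was then -0.09. Filtering on the mean of both arrays left out Trim72 as well. At 1.5-fold, 12 members were higher and 9 lower, beside 16.6% and 17.9% of all genes. At 3-fold, 4 were higher (Trim21, Trim30b, Trim30c and Trim30d) and 0 lower, beside 4.14% and 2.11% of all genes. Differences were followed over 5 settings each for 41 of the 43 members above the filter level, without Trim43b and Trim30e-ps1. Of these differences, 203 moved by less than the pooled SD between probe sets and 2 by more. Both were with low values raised to the filter level, Trim6 (-0.14) and Trim72 (0.33), and 0 changed sign past 2-fold. Many of the 203 could not have moved. Averaging could alter only Trim27, Trim34a and Trim54, which have a second probe set, and centring shifted every gene alike. Raising low values could alter only genes with a value under the filter level. No paired analysis was possible because each group has 1 array.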
